A study of Mus musculus with 39 samples.

Results

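Cells answer unfolded protein in the endoplasmic reticulum (ER) and shortage of amino acids through linked programmes of gene expression, the unfolded protein response (UPR) and the integrated stress response (ISR). They were followed here through 35 genes, of 29980 in the count table, chosen by name and role with earlier results of these data known. The genes comprise 14 ER chaperones and folding enzymes, 5 genes of ER-associated degradation, 4 genes of the UPR sensors and their factors, 8 transcription factors and feedback genes of the ISR, and 4 amino acid genes of the ISR. All 35 were present in the table and 34 passed the filter on low counts, so that they were tested among all genes. The remaining gene was Derl3, which encodes the degradation factor derlin-3. It had 2 counts, both in wild-type (WT) day 2 replicate 4, and was at 0 in the other 38 libraries, whose 702988061 counts allow a level of up to 0.00427 counts per 1000000 counts of the library (CPM) when 3 counts are taken as the floor.

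In the UPR, the ER membrane proteins IRE1 (gene Ern1), PERK (gene Eif2ak3) and ATF6 (gene Atf6) sense unfolded protein in the ER lumen. IRE1 splices the mRNA of the factor XBP1, ATF6 is cut in the Golgi to release a transcription factor, and both raise genes of chaperones and of degradation. PERK phosphorylates the initiation factor eIF2, a step it shares with the other kinases of the ISR, and this favours translation of ATF4, which drives genes of amino acid supply and of feedback. Myoblasts are known to engage parts of this response when they differentiate. The splicing of Xbp1, the cleavage of ATF6 and the phosphorylation of eIF2 are not visible in counts per gene.

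C2C12 is a mouse myoblast line whose cells fuse into myotubes when serum is lowered. FlncKO (KO) cells carry a CRISPR/Cas9 knockout of Flnc, the gene of the muscle actin crosslinker filamin C, made with a guide to its first exon, and the WT cells are the wild-type C2C12 line. RNA was taken from growing cells (day 0) and after 1, 2, 4 and 6 days in medium with 2% horse serum. KO cells had 4 libraries on days 0, 1, 4 and 6 and 3 libraries on day 2, and WT cells had 4 libraries on each day, 39 in all. The labels do not say whether KO cells are a single clone or whether replicates are separate cultures, so that p-values measure only the spread between these libraries, which may be technical. All KO libraries carry the same line name, so that line and knockout cannot be told apart. Values of a group are listed in the order of replicates 1, 3, 4 and 5, without replicate 4 for KO day 2.

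Library totals ran from 6838281 to 28902526 counts. Flnc was at 16.0 to 159 CPM in KO libraries, against 419 to 2207 CPM in WT libraries, with no overlap. The 8 muscle markers looked at (Myod1, Myf5, Des, Myog, Mymk, Myh3, Acta1 and Ckm) were present in both lines, and their summed level at day 6 was 5547 to 8697 CPM in KO libraries, against 15971 to 20083 CPM in WT libraries. At day 6 mitochondrial genes took 4.06% to 5.97% of counts in KO libraries, against 2.89% to 3.47% in WT libraries. Of the markers of other cell types, the 5 adipocyte markers summed to 6.43 to 40.2 CPM in KO libraries, against 9.82 to 34.5 CPM in WT libraries. Most of this was Pparg, which was read in every library, and Cfd was at 0 in all. By day, Pparg was lower in KO cells at day 4 (-1.03 ± 0.24; edgeR adjusted p = 0.0039) and day 6 (-0.96 ± 0.33; adjusted p = 0.0079). The 5 osteoblast markers summed to 8.95 to 49.0 CPM in KO libraries, against 4.06 to 61.9 CPM in WT libraries. Runx2 made up most of it, and Ibsp was at 0. By day, Runx2 was higher in KO cells at day 4 (1.06 ± 0.32; edgeR adjusted p = 0.014) and day 6 (1.13 ± 0.19; adjusted p = 0.012). Alpl also passed as higher at day 6 (edgeR adjusted p = 0.020), at up to 1.38 CPM in KO libraries. The 5 macrophage markers summed to 0.85 to 6.09 CPM in KO libraries, against 0.497 to 7.62 CPM in WT libraries. Of these, Adgre1 was at 0, and Cd68 reached 2.55 CPM in KO and 7.48 CPM in WT libraries. Lyz2 was at 0.142 to 3.39 CPM in KO libraries, against 0 to 0.341 CPM in WT libraries. With all libraries Lyz2 passed the test as higher in KO cells on each day (edgeR adjusted p between 9.4e-05 and 0.037). Without WT day 2 replicate 4 it did not pass at day 2 (adjusted p = 0.084). Cd68 went the other way, lower in KO cells at day 0 (-2.21 ± 0.37; edgeR adjusted p = 0.0022) and day 1 (-1.57 ± 0.82; adjusted p = 0.027). The 4 endothelial markers summed to at most 0.877 CPM in KO and 2.13 CPM in WT libraries. Kdr passed as lower in KO cells at day 0 (edgeR adjusted p = 0.0082), and Tek at days 2 and 4 (adjusted p = 0.011 and 0.014). Both were near the floor, at up to 1.05 and 1.98 CPM in WT libraries. The part of these genes in the results was not tested. In these bulk samples, fewer cells of a kind and less RNA per cell cannot be told apart. Judged over all genes, the mean r of log2 CPM with the rest of the group was 0.929 for KO day 1 replicate 3, 0.954 for KO day 4 replicate 3 and 0.955 for WT day 0 replicate 4, each the lowest of its group. WT day 2 replicate 4 stood apart in the stress genes, and counts of calls are given with and without it.

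Promoters are shown because many members were high together in that library. RefSeq promoters (GRCm38.p6, 250 bases before to 50 bases after the start) were matched for 32 of the 35 genes, not for Atf6, Manf and Hyou1. The ER stress element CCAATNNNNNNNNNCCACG, read by ATF6 and XBP1 together with NF-Y, was searched on both strands and occurred in 0.119% of all 32851 promoters and in 9 of the matched genes, Calr, Canx, Creld2, Derl3, Dnajc3, Hsp90b1, Hspa5, Pdia6 and Syvn1. The ATF4 element TGATGCAA was in 0.895% of all promoters and in 5 of the matched genes, Atf3, Chac1, Herpud1, Nupr1 and Slc7a11. The second ER stress element, ATTGG and CCACG with 1 base between them, a search added later, was in 0.0365% of all promoters and in the genes Dnajb11 and Herpud1. In the other lists used below, the first ER stress element was in 0 of 31 matched genes of ER folding and degradation. It was in 0 of 26 matched ISR targets and kinases. The ATF4 element was in 1 of those 31 and in 7 of those 26. These are matches of letters, in genes chosen by role, and not shown sites of binding. The 6 promoters with the first ER stress element or the ATF4 element whose genes had the highest ratios in WT day 2 replicate 4 follow, 5′ to 3′ along the gene's strand, with the matched element in capitals on whichever strand it was found.
Hspa5, chr2:34771840-34772139, plus strand: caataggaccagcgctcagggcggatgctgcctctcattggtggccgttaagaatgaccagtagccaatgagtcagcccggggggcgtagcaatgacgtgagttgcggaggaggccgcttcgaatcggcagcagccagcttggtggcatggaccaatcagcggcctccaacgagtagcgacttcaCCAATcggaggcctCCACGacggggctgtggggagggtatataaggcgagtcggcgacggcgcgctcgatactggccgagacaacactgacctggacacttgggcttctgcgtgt
Creld2, chr15:88819396-88819695, plus strand: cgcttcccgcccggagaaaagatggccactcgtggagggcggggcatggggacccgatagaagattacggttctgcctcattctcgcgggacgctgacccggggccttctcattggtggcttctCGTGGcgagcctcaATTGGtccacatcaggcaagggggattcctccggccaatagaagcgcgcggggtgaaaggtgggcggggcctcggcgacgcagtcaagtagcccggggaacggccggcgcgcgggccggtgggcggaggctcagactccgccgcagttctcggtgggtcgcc
Hsp90b1, chr10:86705395-86705694, minus strand: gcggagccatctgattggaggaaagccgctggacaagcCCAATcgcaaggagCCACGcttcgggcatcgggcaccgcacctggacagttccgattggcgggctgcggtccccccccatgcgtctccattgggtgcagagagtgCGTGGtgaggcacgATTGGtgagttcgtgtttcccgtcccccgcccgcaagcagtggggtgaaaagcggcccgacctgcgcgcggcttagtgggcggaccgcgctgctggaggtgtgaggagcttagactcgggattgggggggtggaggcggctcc
Slc7a11, chr3:50443564-50443863, minus strand: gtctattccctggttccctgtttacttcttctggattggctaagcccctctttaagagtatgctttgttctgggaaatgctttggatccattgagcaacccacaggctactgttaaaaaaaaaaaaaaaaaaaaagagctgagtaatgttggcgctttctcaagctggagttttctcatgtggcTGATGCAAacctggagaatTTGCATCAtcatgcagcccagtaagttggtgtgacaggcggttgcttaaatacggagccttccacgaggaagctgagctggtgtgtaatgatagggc
Calr, chr8:84846882-84847181, minus strand: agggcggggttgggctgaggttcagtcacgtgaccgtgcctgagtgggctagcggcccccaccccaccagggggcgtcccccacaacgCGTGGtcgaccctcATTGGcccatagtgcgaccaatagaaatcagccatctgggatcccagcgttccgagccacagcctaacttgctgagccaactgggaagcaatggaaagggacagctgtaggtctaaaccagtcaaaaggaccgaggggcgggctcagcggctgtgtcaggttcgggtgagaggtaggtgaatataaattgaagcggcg
Dnajc3, chr14:118937682-118937981, plus strand: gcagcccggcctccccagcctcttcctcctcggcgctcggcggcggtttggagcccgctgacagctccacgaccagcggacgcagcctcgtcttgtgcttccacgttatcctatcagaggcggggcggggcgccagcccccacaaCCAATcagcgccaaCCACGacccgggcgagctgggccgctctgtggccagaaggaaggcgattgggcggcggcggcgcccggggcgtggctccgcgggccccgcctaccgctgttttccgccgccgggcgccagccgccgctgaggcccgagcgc
In Hspa5 the element lay at -65 to -47 from the start, in Dnajc3 at -105 to -87, in Creld2 at -126 to -108 and in Calr at -162 to -144. Hsp90b1 and Slc7a11 each held 2 matches, on opposite strands. Sdf2l1 and Pdia4, which had the highest ratios of all members in that library, held none of the 3 elements in this window.

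WT day 2 replicate 4 held several times more RNA of most members than any other library of its group. Of the 34 members with a mean of at least 5 CPM in WT day 2, 34 were above all 3 other WT day 2 libraries, against 26.8% of all 10048 genes at that level. At least 2-fold above the highest of them were 25 members, against 2.53% of these genes. The members took 4.58% of the counts of this library, against 0.765% to 0.779% in the rest of WT day 2 and 0.520% to 0.851% in the other libraries of groups of 4. Of the 34 members, 33 were also above all 38 other libraries of the study, against 6.04% of all genes, the exception being Nupr1. In no other library of a group of 4 were more than 2 members at least 2-fold above the rest of the group; KO day 1 replicate 3, where 7.60% of genes were that far above, had 1.

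**Figure D1:**
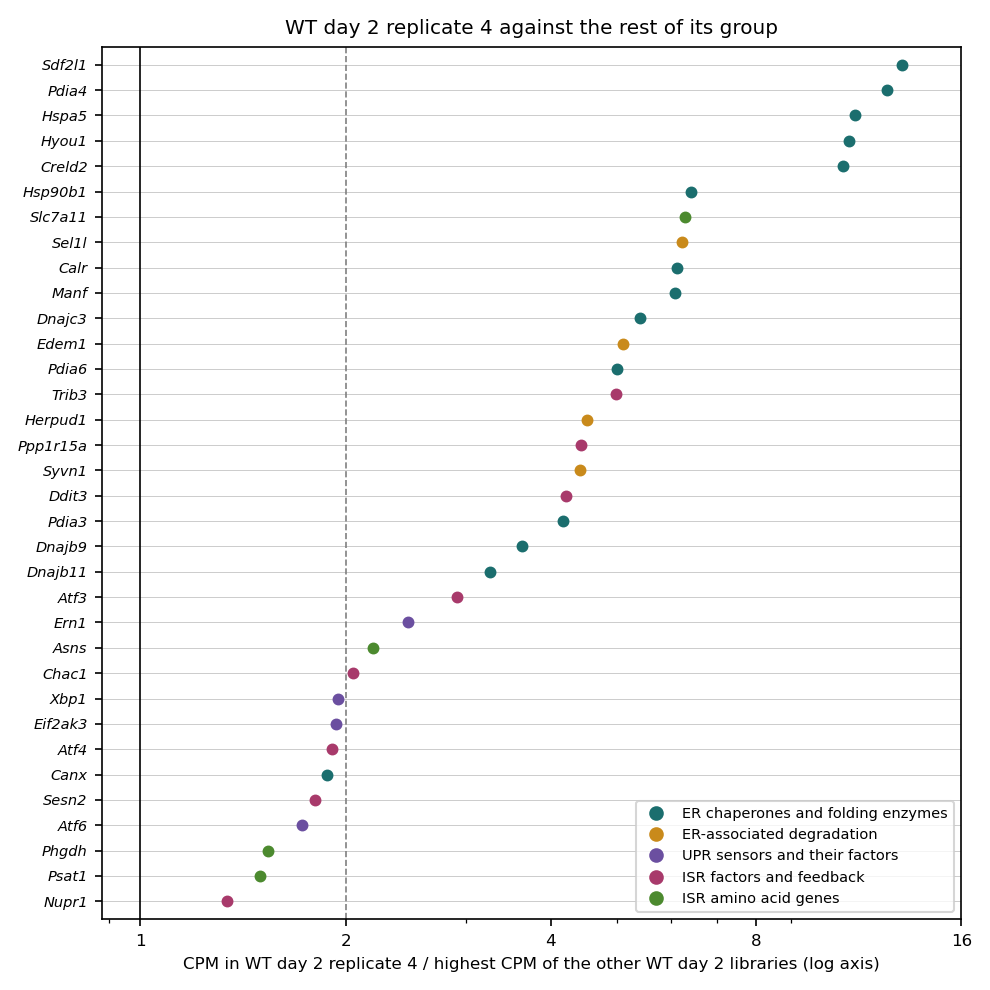
Ratio of CPM in WT day 2 replicate 4 to the highest of the other WT day 2 libraries, for the 34 members with a mean of at least 5 CPM in WT day 2, on a log axis; colours mark the groups of genes, the solid line marks 1 and the dashed line 2. All points lie right of 1, from 1.34 for Nupr1 to 13.1 for Sdf2l1, and chaperones fill the upper end.

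The ER chaperones stood highest. Hspa5, which encodes BiP, the main Hsp70 chaperone of the ER and the inhibitor of the sensors (ENSMUSG00000026864; GRCm38 chromosome 2, 34771970 to 34777547, plus strand), was at 841, 874, 11527 and 1032 CPM in WT day 2, 11.2 times the highest of the others. Its level in the rest of the study did not pass 1366 CPM. Sdf2l1, a partner of the ER Hsp40 proteins, stood at 13.8, 22.7, 298 and 16.2 CPM (13.1 times), and the disulfide isomerase gene Pdia4 at 141, 140.0, 1997 and 161 CPM (12.4 times). Hyou1, an ER Hsp110 that exchanges the nucleotide of BiP, was 10.96 times as high, and Creld2, a secreted ER stress protein, 10.7 times. Hsp90b1, the ER Hsp90, reached 6649 CPM, against 729.5 to 1034 CPM in the rest of its group. In all, 13 of 14 chaperones and folding enzymes were at least 2-fold above, with a median ratio of 6.11, and only the lectin chaperone Canx, at 1.88, was not.

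Degradation genes were also high. Sel1l and Syvn1, the scaffold and the ubiquitin ligase of the HRD1 complex, were 6.23 and 4.41 times as high. Herpud1, which binds that complex (GRCm38 chromosome 8, 94386438 to 94395377, plus strand), was at 189, 148, 854 and 145 CPM in WT day 2. Edem1, a lectin that hands glycoproteins to degradation, was at 48.7, 64.4, 377 and 74.0 CPM. All 4 of 4 measured degradation genes were at least 2-fold above. Among the sensors and their factors, Ern1 was 2.47 times as high, and Xbp1, Eif2ak3 and Atf6 lay between 1.73 and 1.95 times.

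The ISR genes were high in part. Trib3, a pseudokinase induced by ATF4 and CHOP, was at 45.6, 71.6, 357 and 10.9 CPM in WT day 2 (4.98 times the highest other), and Ddit3, which encodes CHOP, at 51.6, 67.6, 285 and 23.4 CPM (4.21 times). Ppp1r15a, whose product GADD34 directs the dephosphorylation of eIF2, was at 76.2, 72.6, 337 and 35.8 CPM. Atf4 itself, whose control is mainly translational, was 1.91 times as high. Of the 8 factors and feedback genes 5 were at least 2-fold above, and of the 4 amino acid genes Slc7a11, the cystine carrier (6.30 times), and Asns, asparagine synthetase (2.19 times). Phgdh, the first enzyme of serine synthesis, was 1.54 times as high.

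Other stress genes were not all as high. Of 45 other genes of ER folding and degradation, 39 were above all 3 other libraries and 9 at least 2-fold, among them the oxidase gene Ero1lb (46.9 CPM, against 5.65 to 10.2) and Fkbp11 (67.2 CPM, against 7.25 to 15.4). Of 35 other ISR targets and kinases with a mean of at least 5 CPM in WT day 2, 30 were above all 3 and 13 at least 2-fold, led by Cth, an enzyme of cysteine synthesis (65.4 CPM, against 4.43 to 16.7). Of 9 heat shock genes, 2 were above all 3 others, against 26.8% of all genes, and none were 2-fold above. The highest ratio was 1.84, for Hspd1 (415 CPM, against 164 to 226). Below all 3 others were 4, among them Hspb1, at 211 CPM, against 513 to 745. The share of all genes below all 3 others was not computed. Counts of genes below are therefore given here without a background, and nothing is drawn from them. Of 8 NRF2 targets, 6 were above all 3 others and 0 below, against 26.8% of all genes above, with a median ratio of 1.35. At least 2-fold above was 1, the heme oxygenase gene Hmox1 (223 CPM, against 44.0 to 105). The glucose-responsive gene Txnip was at 1.67 CPM, against 4.29 to 117 in the other 3. Low Txnip was not particular to this library. Replicate 4 was at 2.10 CPM in WT day 0 and 5.28 CPM in WT day 4, but at 19.2 CPM in WT day 1 and 27.0 CPM in WT day 6. Of the 8 muscle markers 4 were below all 3 other libraries, such as Des (1548 CPM, against 2696 to 4286), while Myf5 was 2.02 times the highest. The sum of these markers was 4792 CPM in this library, the lowest of its group, and its part in the stress values was not tested. Outside the members, the 10 genes with the highest ratios were Ptx3 (56.1 times), Car6 (20.8 times), Cdsn (18.9 times), Akr1b7, Avil, Try5, Atp2a3, Acot2, Angptl6 and Arhgap33. The mean of at least 5 CPM that admitted them includes this library, and only Acot2 reached it in the other 3 (7.49 CPM). Those means were 0.239 CPM for Ptx3, 1.70 for Car6 and 1.69 for Cdsn, so that these ratios rest on low levels. Ptx3 reached 10.6 CPM in a library outside WT day 2. The library was not shallow, with 21592487 counts. Its mean correlation with its group was 0.957, the lowest of that group. A column of the table named for KO day 2 replicate 4 matched no sample in the labels used here and was not analysed.

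**Figure D2:**
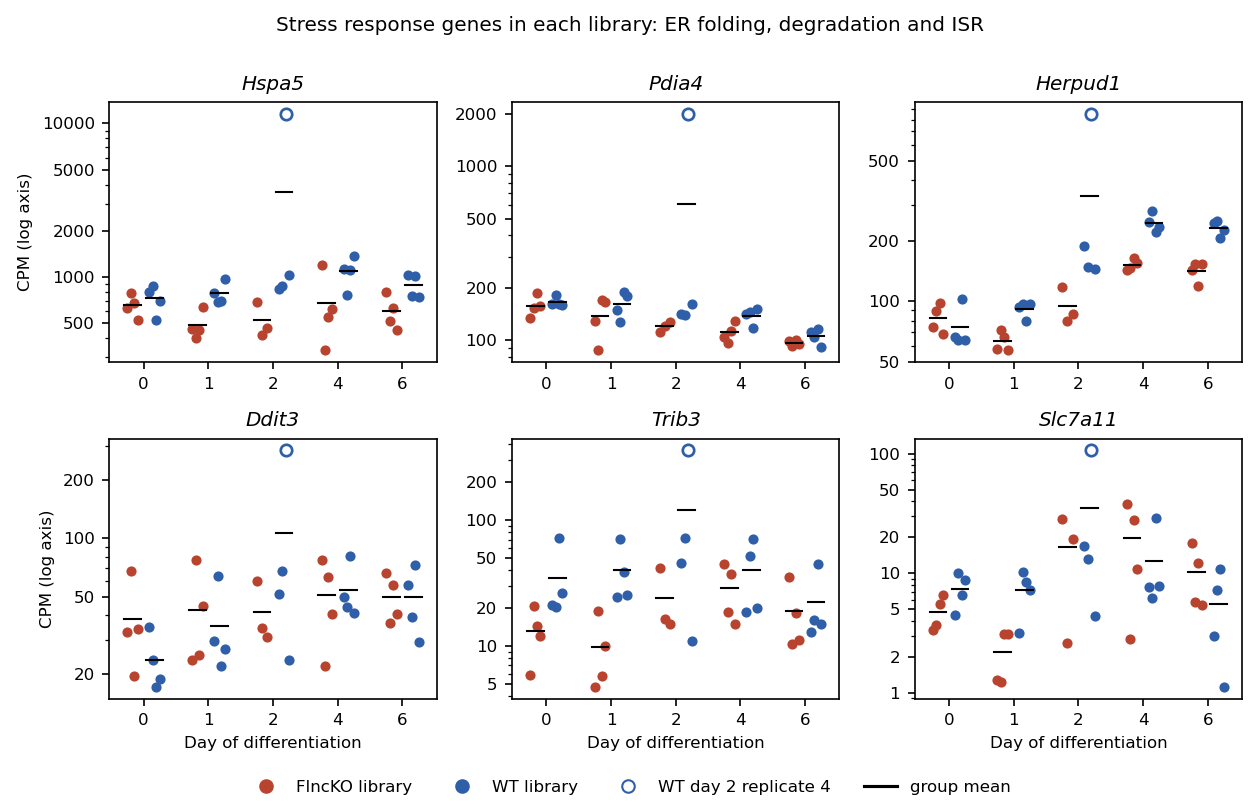
CPM per library on a log axis by day for Hspa5, Pdia4, Herpud1, Ddit3, Trib3 and Slc7a11, with KO libraries (red) left of WT libraries (blue) and black bars for group means. The open circle, WT day 2 replicate 4, is the highest point of every panel, and in Hspa5 it stands at 11527 CPM, against 841 to 1032 CPM in the rest of its group.

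With all libraries, 22 of 34 members were lower in KO than in WT cells at day 2 and 0 were higher (edgeR quasi-likelihood test, Benjamini-Hochberg adjusted p under 0.05), against 10.3% of all genes lower and 7.64% higher. Without WT day 2 replicate 4, 4 of 34 were lower and 0 higher, against 9.62% and 6.79% of all genes. The median log2 difference of the members was -1.46 with the library and -0.35 without it, where the median of all genes was -0.04 and -0.02. Of the 22 calls, 18 were lost without that library.

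**Figure D3:**
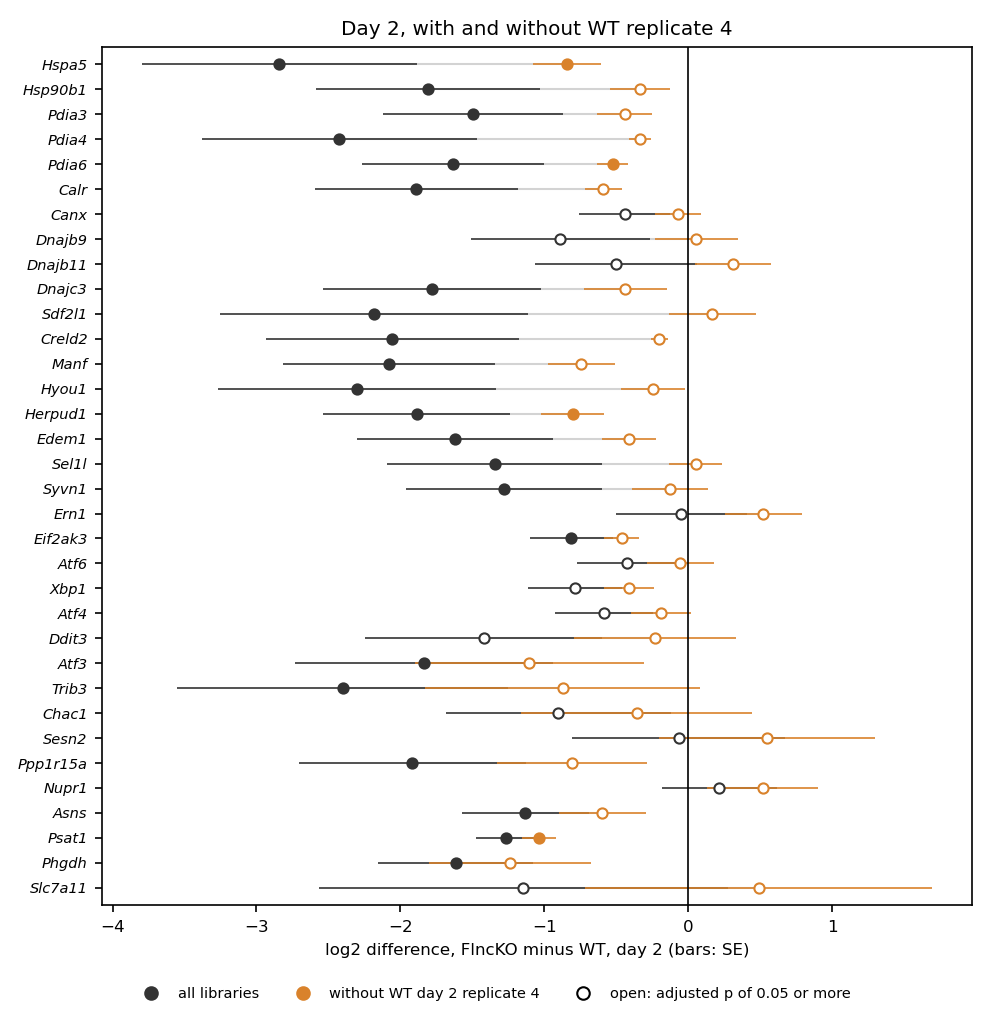
Log2 difference KO minus WT at day 2 with its SE for the 34 members tested, with all libraries (dark) and without WT day 2 replicate 4 (orange); filled points have an adjusted p under 0.05. Of the filled dark points, 22 in all, 4 stay filled in orange.

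Of the 34 members, 4 were lower at day 2 with or without the library, near the share of all genes lower without it (9.62%). Fewer members were lower in a fit of the day 2 groups alone. Hspa5 was at 691, 418 and 463 CPM in KO day 2, against 841, 874, 11527 and 1032 CPM in WT day 2, so that all KO libraries lay below all WT libraries. Its log2 difference was -2.84 ± 0.95 (SE; edgeR adjusted p = 0.00066) with the library and -0.84 ± 0.24 (adjusted p = 0.044) without it. Here and elsewhere the difference is the estimate of the edgeR fit. The SE comes from the log2 CPM of the libraries and describes their spread, not the error of that estimate. Herpud1 was at 118, 79.3 and 86.6 CPM in KO day 2, against 145 to 854 CPM in WT day 2, a log2 difference of -1.89 ± 0.65 (edgeR adjusted p = 0.00047), and of -0.80 ± 0.22 (adjusted p = 0.0061) without the library. The disulfide isomerase gene Pdia6 was at 164, 201 and 195 CPM in KO day 2, against 241, 258, 1428 and 286 CPM in WT day 2, with log2 differences of -1.64 ± 0.63 (edgeR adjusted p = 0.0016) and, without the library, -0.53 ± 0.11 (adjusted p = 0.047). Psat1, the aminotransferase of serine synthesis, was at 278, 262 and 239 CPM in KO day 2, against 527, 565, 845 and 462 CPM in WT day 2, with log2 differences of -1.26 ± 0.21 (edgeR adjusted p = 0.0083) and, without the library, -1.04 ± 0.12 (adjusted p = 0.038).

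At day 2, 0 of 34 members had all KO libraries above all WT libraries and 10 had them all below, against 14.8% and 12.6% of all genes; without WT day 2 replicate 4 these were 1 and 10, against 18.6% and 17.3%. Of the other 18 members called with all libraries, Calr, Creld2, Pdia3, Pdia4, Manf and Eif2ak3 also had all KO libraries below all WT libraries, and none passed without the library. The calcium-binding chaperone Calr had a log2 difference of -1.89 ± 0.71 (edgeR adjusted p = 0.0015), and of -0.59 ± 0.13 (adjusted p = 0.062) without it. For Pdia4 the values were -2.42 ± 0.95 (edgeR adjusted p = 0.0015) and -0.34 ± 0.08 (adjusted p = 0.22), and for Manf, a secreted ER stress factor, -2.08 ± 0.74 (adjusted p = 0.0017) and -0.74 ± 0.23 (adjusted p = 0.082). Creld2 (-2.06 ± 0.88 and -0.20 ± 0.06), Hyou1 (-2.30 ± 0.97 and -0.24 ± 0.22), Hsp90b1 (-1.81 ± 0.78 and -0.34 ± 0.21), Dnajc3 (-1.78 ± 0.76 and -0.44 ± 0.29) and Pdia3 (-1.49 ± 0.63 and -0.44 ± 0.19) were smaller without the library in the same way. Sdf2l1 and Sel1l changed sign, with log2 differences of -2.19 ± 1.07 (edgeR adjusted p = 0.017) and -1.34 ± 0.75 (adjusted p = 0.042) with the library, and of 0.17 ± 0.30 (adjusted p = 0.82) and 0.05 ± 0.18 (adjusted p = 0.94) without it.

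Among the remaining calls at day 2, the degradation genes Edem1 and Syvn1 had log2 differences of -1.62 ± 0.68 and -1.28 ± 0.68 with the library, and of -0.41 ± 0.19 and -0.13 ± 0.27 without it. The ISR genes Ppp1r15a, Trib3 and Atf3 had -1.92 ± 0.79, -2.40 ± 1.15 and -1.84 ± 0.89, and without the library -0.81 ± 0.52, -0.87 ± 0.95 and -1.11 ± 0.80. Asns, Phgdh and the kinase gene Eif2ak3 had -1.13 ± 0.44, -1.62 ± 0.54 and -0.81 ± 0.29, and without it -0.60 ± 0.30, -1.24 ± 0.56 and -0.46 ± 0.12. With the replicate number as a block within each day, in which WT day 2 replicate 4 has no KO partner among the libraries analysed, 11 members were lower at day 2 and 0 higher, against 14.6% and 11.3% of all genes. Single KO libraries also decided calls at day 2: those of Atf3, Eif2ak3, Syvn1 and Trib3 were lost without KO replicate 3 or 5, that of Sdf2l1 without KO replicate 1 or 5, those of Dnajc3 and Hsp90b1 without KO replicate 3, and those of Asns, Phgdh and Sel1l without any of the 3 (edgeR adjusted p between 0.053 and 0.16). The call of Asns was also lost without WT replicate 3 (adjusted p = 0.054). The summed level of the 8 muscle markers at day 2 was 2764 to 4544 CPM in KO libraries, against 4792 to 9313 CPM in WT libraries, and its part in these differences was not tested.

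Outside day 2 few members passed the test, and the fit shares its estimate of the spread over all 10 groups, so that WT day 2 replicate 4 enters every comparison. The summed level of the muscle markers was lower and the mitochondrial share higher in KO libraries at day 6, as given above. Their part in the late differences was not tested. By gene, Myh3 and Mymk passed as lower at day 6 and Myod1 as higher (0.98 ± 0.13; edgeR adjusted p = 0.00078). Acta1, Ckm, Des, Myf5 and Myog did not pass at day 6. Myod1 was also higher in KO cells at days 1, 2 and 4 (edgeR adjusted p between 0.00041 and 0.0037). At day 0, 1 member was higher and 2 lower in KO cells, against 6.46% and 9.09% of all genes, and without the library 4 were higher and 3 lower (6.86% and 9.48%). At day 1, 0 were higher and 4 lower (8.1% and 9.93%), and without the library 2 and 7 (8.47% and 10.4%). At day 4, 1 was higher and 0 lower (13.3% and 14.2%), and without it 1 and 5 (13.6% and 14.6%). At day 6, 2 were higher and 1 lower (14.5% and 14.4%), and without it 3 and 3 (14.9% and 14.7%). Members with all KO libraries above, or all below, the WT libraries numbered 4 and 3 at day 0 (9.03% and 8.3% of all genes), 1 and 7 at day 1 (7.03% and 11.5%), 3 and 4 at day 4 (15.3% and 12.0%) and 3 and 4 at day 6 (19.2% and 14.7%). The members' median log2 differences were -0.16, -0.26, -0.31 and -0.19 on these days, where those of all genes were -0.01, 0.01, 0.01 and 0.02. Libraries of the same number deviated together on days 0, 1, 2 and 4, and with a block within each day 4 were higher and 9 lower at day 0 (13.2% and 15.8% of all genes), 2 and 13 at day 1 (11.8% and 15.8%), 3 and 13 at day 4 (18.8% and 19.0%) and 3 and 7 at day 6 (20.0% and 19.0%), where the pairing did not hold.

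Among the chaperones, the direction differed by gene and day. Dnajb11, an ER Hsp40, was at 128, 243, 198 and 202 CPM in KO day 0, against 110, 113, 89.7 and 99.5 CPM in WT day 0, so that every KO library lay above every WT library. Its log2 difference was 0.87 ± 0.21 (edgeR adjusted p = 0.049; 0.0033 without WT day 2 replicate 4), a call that was lost when any of 7 of the 8 libraries of that day was left out (adjusted p between 0.077 and 0.16). Sdf2l1 was at 22.7, 61.5, 55.2 and 45.5 CPM in KO day 0, against 13.9 to 17.4 CPM in WT day 0, a log2 difference of 1.53 ± 0.36 (edgeR adjusted p = 0.066; 0.00094 without WT day 2 replicate 4). At day 1 both were again higher without that library, Dnajb11 by 0.77 ± 0.19 (adjusted p = 0.0081) and Sdf2l1 by 1.04 ± 0.43 (adjusted p = 0.02).

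With all libraries and no replicate block, no chaperone passed the test at day 4 or 6. More members were lower on both days with a replicate block within each day, as counted above. A member that did not pass without the block is therefore not shown to be unchanged. Pdia6 was at 189, 166, 182 and 212 CPM in KO day 4, against 304, 276, 333 and 331 CPM in WT day 4, and at 184, 168, 152 and 168 CPM in KO day 6, against 325, 245, 304 and 242 CPM in WT day 6. The groups did not overlap on either day, with log2 differences of -0.81 ± 0.09 and -0.80 ± 0.11; edgeR gave adjusted p = 0.063 and 0.064 with all libraries, and 0.0002 and 0.00023 without WT day 2 replicate 4. At day 0 it had the opposite direction, at 390, 489, 451 and 503 CPM in KO cells, against 307, 350.4, 354 and 254 CPM in WT cells (0.49 ± 0.16; adjusted p = 0.32, and 0.032 without that library). Hspa5 was at 1202, 333, 551 and 622 CPM in KO day 4, against 1124, 758, 1116 and 1366 CPM in WT day 4 (-0.78 ± 0.40; edgeR adjusted p = 0.26, and 0.018 without that library); KO replicate 1 lay among the WT libraries and the other 3 KO libraries below them all. Canx was at 456 to 850.2 CPM in KO day 4, against 478 to 850.5 CPM in WT day 4, with a log2 difference of -0.23 ± 0.24.

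Among the degradation genes, Herpud1 passed the test at days 4 and 6 without WT day 2 replicate 4 and not with all libraries. It was at 143, 145, 164 and 155 CPM in KO day 4, against 246, 281, 222 and 235 CPM in WT day 4, and at 143, 152, 119 and 152 CPM in KO day 6, against 245, 251, 207 and 226 CPM in WT day 6. All KO libraries lay below all WT libraries on days 1, 2, 4 and 6. The log2 differences at days 4 and 6 were -0.78 ± 0.10 and -0.78 ± 0.12, with edgeR adjusted p = 0.078 and 0.076, and 0.0011 and 0.001 without WT day 2 replicate 4. Edem1 was at 33.6, 33.9, 41.9 and 31.8 CPM in KO day 6, against 20.1, 21.4, 21.9 and 20.6 CPM in WT day 6, a difference in the other direction of 0.67 ± 0.09 (edgeR adjusted p = 0.16, and 0.0045 without that library). Sel1l and Syvn1 did not pass on days 0, 1, 4 and 6 in the fits without a replicate block, with log2 differences between -0.38 and 0.05.

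Of the sensors, Ern1 was higher in KO cells at day 6, at 80.9, 42.9, 72.6 and 34.9 CPM, against 28.3, 30.01, 23.6 and 27.8 CPM in WT day 6. Its log2 difference was 0.99 ± 0.29 (edgeR adjusted p = 0.047; 0.026 without WT day 2 replicate 4), and it lost its call when any of 6 of the 8 libraries was left out (adjusted p between 0.069 and 0.16). Eif2ak3 had a log2 difference of -0.60 at days 0 and 1, which did not pass with all libraries (edgeR adjusted p = 0.082 and 0.076). They passed without WT day 2 replicate 4 (0.046 and 0.04) and with a replicate block within each day (0.0091 and 0.0089). Atf6 (-0.62 ± 0.23 to -0.09 ± 0.17 outside day 2) and Xbp1 (-0.31 ± 0.24 to 0.40 ± 0.43 outside day 2) did not pass in the fits without a replicate block.

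The ISR factor ATF3 had the largest difference of all members before differentiation. Atf3 (GRCm38 chromosome 1, 191170296 to 191218039, minus strand) was at 4.32, 3.80, 4.97 and 2.87 CPM in KO day 0, against 22.3, 20.6, 33.0 and 26.5 CPM in WT day 0. At day 1 it was at 6.21, 6.48, 2.36 and 3.59 CPM in KO cells, against 30.5, 46.7, 22.5 and 25.8 CPM in WT cells. The log2 differences were -2.73 ± 0.26 (edgeR adjusted p = 8.5e-05) and -2.71 ± 0.43 (adjusted p = 7.6e-05), kept without any 1 library. In KO cells Atf3 then reached 17.4 to 39.5 CPM at day 4, against 27.0 to 51.0 CPM in WT cells, and the difference of -0.65 ± 0.32 did not pass (adjusted p = 0.3).

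**Figure D4:**
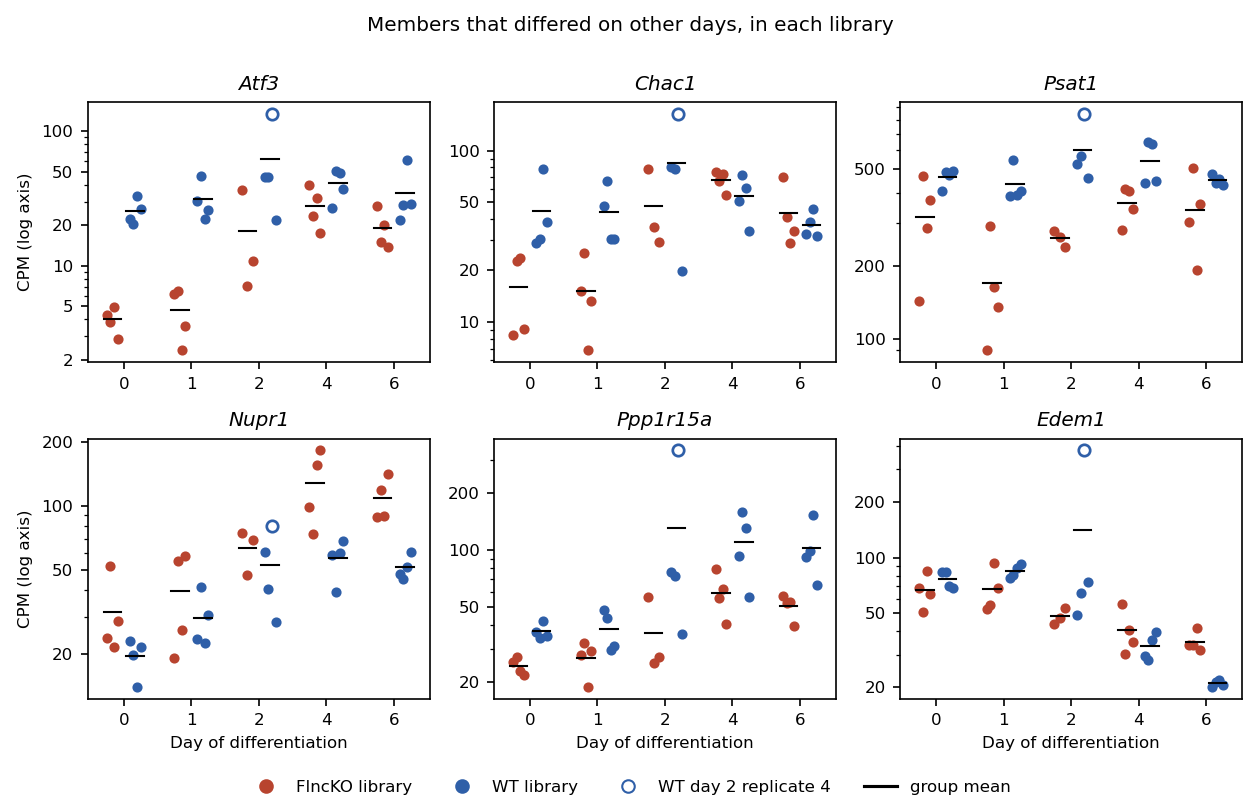
CPM per library on a log axis by day for Atf3, Chac1, Psat1, Nupr1, Ppp1r15a and Edem1, with KO libraries (red) left of WT libraries (blue) and black bars for group means; the open circle is WT day 2 replicate 4. Atf3 stands at 2.87 to 4.97 CPM in KO day 0, against 20.6 to 33.0 CPM in WT day 0, and the groups meet by day 4.

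Other ISR genes were lower in KO cells at the early days too. Chac1, which degrades glutathione, was at 8.36, 22.6, 23.7 and 9.10 CPM in KO day 0, against 29.0, 30.7, 78.8 and 38.5 CPM in WT day 0 (-1.53 ± 0.57; edgeR adjusted p = 0.023), and at 15.2, 25.5, 6.84 and 13.2 CPM in KO day 1, against 47.7, 66.4, 30.6 and 30.6 CPM in WT day 1 (-1.48 ± 0.50; adjusted p = 0.025). The day 0 call was lost without KO replicate 1 or 5 (adjusted p = 0.08 in each case) or WT replicate 4 (0.11), and the day 1 call without KO replicate 4 or 5 (0.087 and 0.071) or WT replicate 1 or 3 (0.052 and 0.084). Trib3 was at 4.73, 18.8, 5.72 and 10.04 CPM in KO day 1, against 24.5, 70.8, 39.0 and 25.2 CPM in WT day 1 (-1.96 ± 0.59; edgeR adjusted p = 0.048), and this call was lost without any of 6 of the 8 libraries (adjusted p between 0.053 and 0.14). Ddit3, in contrast, was at 19.3 to 67.8 CPM in KO day 0, against 17.1 to 34.8 CPM in WT day 0 (0.69 ± 0.42; adjusted p = 0.38). Atf4 was at 249, 529, 270.2 and 337 CPM in KO day 0, against 337, 362, 347 and 373 CPM in WT day 0, and its difference outside day 2 was between -0.21 ± 0.15 and -0.07 ± 0.26.

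At the late days feedback genes were called in opposite directions. Nupr1, a small chromatin-associated stress protein, was at 98.1, 73.7, 156 and 182 CPM in KO day 4, against 58.6, 39.1, 59.6 and 68.4 CPM in WT day 4 (1.09 ± 0.33; edgeR adjusted p = 0.014), and at 88.6, 118, 89.1 and 141 CPM in KO day 6, against 47.5, 44.9, 51.5 and 60.7 CPM in WT day 6 (1.02 ± 0.21; adjusted p = 0.021). Every KO library lay above every WT library on both days. The day 4 call was lost without KO replicate 4 or 5 (adjusted p = 0.05 and 0.087) or WT replicate 3 (0.052), and the day 6 call without KO replicate 5 (0.08) or WT replicate 1 or 3 (0.054 and 0.057). Ppp1r15a went the other way, at 57.0, 52.5, 53.3 and 39.5 CPM in KO day 6, against 91.5, 99.0, 153 and 65.1 CPM in WT day 6 (-1.08 ± 0.26; edgeR adjusted p = 0.044; 0.005 without WT day 2 replicate 4). That call was lost without any of 7 of the 8 libraries of day 6 (adjusted p between 0.056 and 0.16). Sesn2, a leucine sensor and ATF4 target, was at 52.5 to 75.5 CPM in KO day 4, against 22.2 to 47.9 CPM in WT day 4, without overlap and without passing the test (0.80 ± 0.28; adjusted p = 0.12).

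Of the amino acid genes, Psat1 was lower in KO cells at day 1, at 89.6, 290.4, 164 and 135 CPM, against 388, 549, 393 and 405 CPM in WT day 1 (-1.30 ± 0.40; edgeR adjusted p = 0.0028). This difference passed without any 1 library. Asns was at 35.0, 148, 71.3 and 77.2 CPM in KO day 1, against 131, 235, 153 and 157 CPM in WT day 1 (-0.97 ± 0.49; adjusted p = 0.061, and 0.035 without WT day 2 replicate 4). Phgdh was at 62.6, 93.0, 39.7 and 70.4 CPM in KO day 6, against 138, 141, 130.1 and 118 CPM in WT day 6, without overlap (-1.06 ± 0.27; adjusted p = 0.082). Slc7a11 varied within groups by more than 10-fold at KO days 2 and 4 (2.63 to 28.3 and 2.83 to 38.1 CPM), and its differences did not pass on any day with or without WT day 2 replicate 4; with a replicate block within each day it passed at day 1 (edgeR adjusted p = 0.045).

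**Figure D5:**
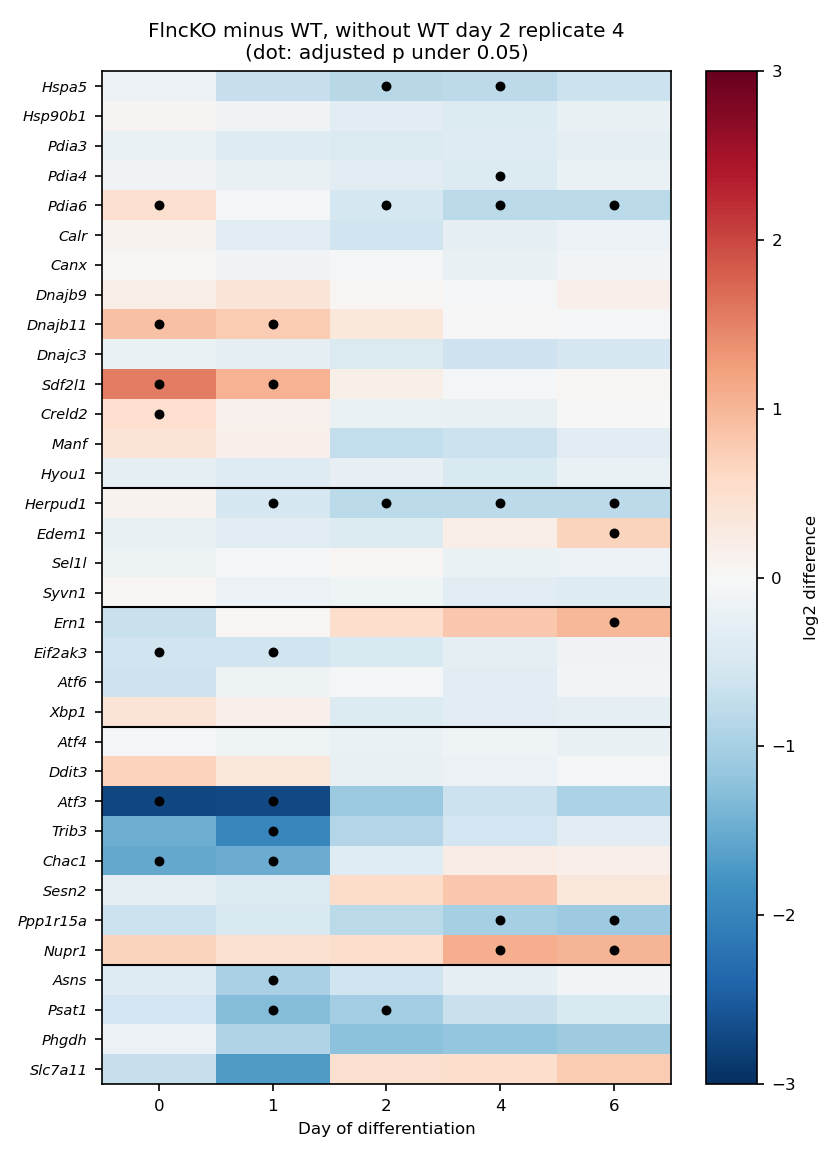
Log2 difference KO minus WT for the 34 members tested on each day, in the fit without WT day 2 replicate 4, with dots for an adjusted p under 0.05 and lines between the groups of genes. Atf3 at day 0 (-2.73) is the deepest blue, Sdf2l1 at day 0 (1.53) the deepest red, and 4 dots stand at day 2.

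The course of differentiation moved members in both lines. Over the 5 days 14 of 34 members changed in KO cells and 24 in WT cells, against 38.7% and 48.5% of all genes; without WT day 2 replicate 4 the counts were 19 and 10, against 39.8% and 47.9%. From day 0 to day 6, a comparison added after the data were seen, 7 members rose and 5 fell in KO cells (20.5% and 23.1% of all genes) and 5 rose and 3 fell in WT cells (21.7% and 27.8%). Without that library the counts were 8 and 10 in KO cells (20.9% and 23.5%) and 9 and 7 in WT cells (22.0% and 28.2%). The Hsp40 gene Dnajb9 was at 88.0 to 103 CPM at KO day 6, against 20.5 to 36.2 CPM at KO day 0, a log2 change of 1.84 ± 0.21 (edgeR adjusted p = 5e-05), and changed by 1.90 ± 0.22 (adjusted p = 2.3e-05) in WT cells. Atf6 rose in both lines, by 1.56 ± 0.16 in KO and 1.03 ± 0.23 in WT cells, as did Nupr1 (1.77 ± 0.35 and 1.41 ± 0.16) and Ppp1r15a (1.02 ± 0.13 and 1.45 ± 0.26).

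Calr and Edem1 fell in both lines over differentiation. Calr was at 488 to 582 CPM at KO day 6, against 1109 to 1740 CPM at KO day 0 (-1.33 ± 0.17; edgeR adjusted p = 0.0046), and its change in WT cells was -1.07 ± 0.23 (adjusted p = 0.017). Edem1 changed by -0.95 ± 0.17 in KO cells and by -1.86 ± 0.06 in WT cells. Atf3 rose in KO cells by 2.22 ± 0.28 (edgeR adjusted p = 0.00027), and its change in WT cells was 0.44 ± 0.36 (adjusted p = 0.43). Pdia6, Manf and Phgdh fell in KO cells by 1.48, 1.11 and 1.76 on the log2 scale, and had changes of -0.18 ± 0.15, -0.36 ± 0.19 and -0.87 ± 0.25 in WT cells that did not pass. Herpud1 rose in WT cells by 1.64 ± 0.21 (edgeR adjusted p = 0.00015), with 0.75 ± 0.17 in KO cells (adjusted p = 0.068; 0.0011 without that library). Whether these changes differ between the lines is given by the test of genotype by day.

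In that test 4 members were called, Edem1 (edgeR adjusted p = 0.035), Manf (0.048), Pdia6 (0.023) and Sdf2l1 (0.032), against 7.74% of all genes. Without WT day 2 replicate 4 there were again 4 (8.28% of all genes), with Atf3 (0.014) in place of Manf (0.12), beside Edem1 (0.016), Pdia6 (0.00026) and Sdf2l1 (0.046). With a replicate block within each day 9 were called (16.2% of all genes). In the fit without the library, the KO minus WT difference of Pdia6 moved by -1.30 ± 0.19 between day 0 and day 6 (edgeR adjusted p = 0.0002), and that of Atf3 by 1.79 ± 0.46 (adjusted p = 0.036). By that test 3 of 34 members moved up and 4 down, against 6.43% and 4.48% of all genes. With all libraries neither Pdia6 nor Atf3 passed it (edgeR adjusted p = 0.069 and 0.068).

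At day 0 the most abundant members per kilobase of exon were Calr, at 471 mean CPM per kb in KO and 426 in WT cells, Hsp90b1, at 228 and 213, Pdia3, at 170.1 and 192, and Hspa5, at 155 and 172. At day 6 Atf4 led in both lines, at 215 mean CPM per kb in KO and 237 in WT cells. Slc7a11 was the lowest of the tested members per kilobase, at 0.345 mean CPM per kb in KO and 0.537 in WT cells at day 0. Some members share bases with other genes in the annotation. Manf overlaps Rbm15b on the same strand by 6511 bases and Dcaf1 on the other strand. Rbm15b had its highest level in WT day 2 replicate 4 (196 CPM, against a mean of 63.4 CPM), and Dcaf1 was at 77.3 CPM there (mean 57.9 CPM). The part of shared reads in the level of Manf was not tested. Ddit3 overlaps Mars on the other strand by 68 bases. The strand setting of the counting is not given in the sources used here, and reads in those overlaps may be assigned to either gene or to none.

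The other genes of the pathway are set against the shares of all genes higher and lower in KO cells with all libraries, 6.46% and 9.09% at day 0, 8.1% and 9.93% at day 1, 7.64% and 10.3% at day 2, 13.3% and 14.2% at day 4 and 14.5% and 14.4% at day 6. Of 45 other genes of ER folding and degradation tested, 1 was higher and 3 lower in KO cells at day 0, 2 and 2 at day 1, 1 and 6 at day 2, 5 and 3 at day 4 and 5 and 2 at day 6. Without WT day 2 replicate 4 the counts were 2 and 3, 4 and 2, 4 and 2, 7 and 5, and 7 and 3 on these days. Wfs1, an ER calcium regulator and UPR target, was at 23.7 to 37.7 CPM in KO day 0, against 86.6 to 111 CPM in WT day 0 (-1.70 ± 0.17; edgeR adjusted p = 3.9e-05). The disulfide isomerase gene Pdia5 was higher at day 0 (1.37 ± 0.41; adjusted p = 0.021), and the lectin gene Erlec1 at day 1 (0.62 ± 0.08; adjusted p = 0.0046).

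Of 36 other ISR targets and kinases tested, 2 were higher and 4 lower in KO cells at day 0, 2 and 12 at day 1, 3 and 11 at day 2, 3 and 3 at day 4 and 4 and 3 at day 6. Without WT day 2 replicate 4 the counts were 3 and 6, 3 and 15, 3 and 4, 4 and 5, and 6 and 5. Stc2, a secreted glycoprotein induced by ER stress, was at 53.6 to 90.5 CPM in KO day 0, against 14.5 to 24.1 CPM in WT day 0 (1.75 ± 0.24; edgeR adjusted p = 0.00044). Ddit4, an inhibitor of mTORC1, was at 43.7 to 53.5 CPM in KO day 6, against 5.41 to 19.5 CPM in WT day 6 (2.00 ± 0.39; adjusted p = 3.6e-06), and the kinase gene Eif2ak4, which encodes GCN2, was higher by 1.84 ± 0.19 at day 6 (adjusted p = 3.3e-08). The cationic amino acid carrier Slc7a1 was lower at day 0 (-1.79 ± 0.33; adjusted p = 0.00071) and at day 6 (-1.32 ± 0.23; adjusted p = 0.0059). Gpt2, an alanine aminotransferase, was lower at day 1 (-1.39 ± 0.24; adjusted p = 1.6e-05). The NRF2 targets, a separate response to oxidants, had 6 of 8 higher and 0 lower at day 4 (13.3% and 14.2% of all genes). At day 6, 5 of 8 were higher and 0 lower (14.5% and 14.4%). Without WT day 2 replicate 4 they were 6 and 0 on either day (13.6% and 14.6% of all genes at day 4, 14.9% and 14.7% at day 6). At day 6 the log2 difference was 2.38 ± 0.44 for the quinone reductase gene Nqo1 (edgeR adjusted p = 0.00018) and 1.80 ± 0.23 for Txnrd1 (adjusted p = 7.4e-08). The calls of the genes named from these 3 lists, on the days given, also passed without WT day 2 replicate 4.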

How the data were processed

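The deposited table holds raw counts per gene for poly(A) RNA libraries (TruSeq Stranded mRNA, per the labels' protocols), made by the authors with FastQC 0.11.9, STAR 2.7.9 and featureCounts 2.0.3, per the submitters' processing notes; these also name DESeq2, and GRCm38 and GRCh38 without a role. All 29980 gene IDs matched GENCODE M21 (GRCm38), 1 column, named for KO day 2 replicate 4, matched no sample in the labels and was not used, and 64.4% of the nonzero counts were even, so that counts may be of mates. Totals of 6838281 to 28902526 counts set the precision; the floor of 3 counts covers counting error only.

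Counts of 39 libraries in 10 groups were fitted in R 4.3.3 with edgeR 4.0.16 (limma 3.58.1; TMM factors 0.9035 to 1.054; filterByExpr, 13780 genes; quasi-likelihood tests on 29 residual degrees of freedom; Benjamini-Hochberg adjusted p, threshold 0.05 over all genes), after a check on simulated counts. CPM in the text is counts per 1000000 of the library's total, without TMM scaling. Log2 differences are the estimates of the edgeR fit, which follow mean counts. The SE was taken apart from that fit. For the SE, each group's variance of log2 CPM (prior count 2) was divided by its n, and the root of the sum was taken. It describes the spread between libraries on the log scale. Where 1 library is far above its group, it is not the SE of the fitted difference. Alternatives were DESeq2 1.42.0, its size factors, library totals only, no filter, halved counts, only the groups compared, leaving out libraries, and a replicate block. Same-numbered KO and WT libraries deviated together (r 0.135 to 0.334 at day 0, 0.291 to 0.571 at day 1, 0.133 to 0.394 at day 2, 0.126 to 0.503 at day 4), but not at day 6 (-0.017 to 0.185).

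Members and lists were chosen with earlier results of these data known. All members are described, with per-library values for those the results turn on; of the other UPR and ISR genes, up to 4 per direction, list and day with the smallest p could be named. Other genes of the lists that are named for WT day 2 replicate 4 were chosen after their values were seen. So were Nqo1, Txnrd1, Cd68, Lyz2, Pparg, Runx2, Alpl, Kdr and Tek. The second ER stress element was added later. Protein termini were not used here.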

Additional observations from a re-analysis of the deposited data

Results flagged for a closer look

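Each of 306 sets of 4 libraries was tested for a single library far from the others, which chance gives in about 1 set in 20. WT day 2 replicate 4 was far out in 11 sets; it was known beforehand to stand apart, so these describe it and support nothing further. In WT day 2 replicate 4 the level was far above the rest of the group for Hspa5 (11527 CPM), Hsp90b1 (6649 CPM), Calr (6368 CPM), Pdia4 (1997 CPM), Hyou1 (1960.1 CPM), Pdia6 (1428 CPM), Sel1l (1312 CPM), Herpud1 (854 CPM), Creld2 (574 CPM), Sdf2l1 (298 CPM) and Eif2ak3 (65.9 CPM).

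Outside WT day 2, 14 of 272 sets held such a library, about as many as chance gives, spread over 11 libraries. High values were Hspa5 in KO day 1 replicate 5 (636 CPM), Hyou1 in KO day 0 replicate 4 (237 CPM), Xbp1 in KO day 4 replicate 3 (195 CPM), Herpud1 and Xbp1 in WT day 0 replicate 4 (102 and 189.8 CPM), Psat1 in WT day 1 replicate 3 (549 CPM) and Slc7a11 in WT day 4 replicate 4 (29.1 CPM). Low values were Pdia3 and Canx in KO day 1 replicate 3 (327 and 403 CPM), Sesn2 in KO day 4 replicate 5 (52.5 CPM), Ppp1r15a in KO day 6 replicate 5 (39.5 CPM), Ern1 in WT day 1 replicate 3 (29.0 CPM), Manf in WT day 6 replicate 3 (67.8 CPM) and Edem1 in WT day 6 replicate 1 (20.1 CPM).

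The difference between KO and WT cells itself differed over the days for Pdia6 (edgeR quasi-likelihood test, adjusted p = 0.0231), Sdf2l1 (adjusted p = 0.0317), Edem1 (adjusted p = 0.0352) and Manf (adjusted p = 0.0483). Without WT day 2 replicate 4, Manf did not pass (edgeR adjusted p = 0.12).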

How the results depend on the processing

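Without WT day 2 replicate 4 the number of members lower in KO cells at day 2 was 4, against 22 with it, and the log2 differences of Sdf2l1 and Sel1l turned positive, ranging from -2.54 to 0.17 and from -1.64 to 0.052 over fits that left out 1 library; with a replicate block within each day they were 0.17 and 0.054. The cause was not tested. Over fits that left out 1 library, members higher and lower in KO cells numbered 0 to 4 and 1 to 3 at day 0, 0 to 2 and 2 to 7 at day 1, 0 and 4 to 23 at day 2, 0 to 1 and 0 to 5 at day 4, and 0 to 3 and 0 to 3 at day 6. From day 0 to day 6 they gave 4 to 8 rises and 3 to 10 falls in KO cells and 5 to 9 rises and 1 to 7 falls in WT cells, over the days 10 to 19 changes in KO and 10 to 29 in WT cells, and 1 to 10 members by genotype and day. With the replicate block over all libraries 2 members were higher at day 0, and 7, 4 and 3 were lower at days 1, 4 and 6; with a replicate block within each day 4, 2, 3 and 3 were higher at days 0, 1, 4 and 6, 9, 13, 11, 13 and 7 were lower at days 0, 1, 2, 4 and 6, and 9 were called by genotype and day. Fits of only the groups compared gave 2, 1 and 3 higher at days 0, 1 and 4, 2, 5 and 8 lower at days 2, 4 and 6, and 11 falls in KO cells from day 0 to day 6. DESeq2 gave 2 higher at day 0, 3 and 2 lower at days 4 and 6 and 8 by genotype and day. DESeq2 size factors gave 0 higher at day 0 and 1 at day 6, halved counts 1 higher at day 6, library totals alone 0 lower at day 6, and no filter 0 higher at day 0, 1 higher and 0 lower at day 6 and 1 by genotype and day. Without WT day 0 replicate 4 and KO day 1 replicate 3 there were 0 higher at day 0 and 1 and 3 lower at days 4 and 6. No fit of genotype by day used only the groups compared. Depth limits Derl3 most, with 2 counts in the whole study.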
